A study of Mus musculus with 12 samples.

Results

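Beside named small RNAs, the small RNA libraries from the mouse prefrontal cortex (PFC) held 4 rows that each gathered the counts of 1 genomic class, namely exon, repeat, intron and intergenic. These were all rows of those Types, 4 of the 3134 rows in the 12 libraries, and the rows were chosen by their Type label. The 4 Types themselves were picked with earlier results of these data known. Each Type consisted of a single row, which carried a dash in place of a description in all 48 entries. A class total therefore could not be divided among genes, repeat families or positions, and the rows have no sequence of their own. The value given throughout is the share, which is the count of the class as a percentage of the total count of the library.

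Small RNA sequencing is aimed at short regulatory RNAs, above all miRNAs, which Argonaute proteins carry to target mRNAs, and piRNAs, which PIWI proteins use in the germ line to silence transposons. Reads that map to the genome but to no annotated small RNA are commonly sorted by where they fall. Exonic reads include fragments of mRNAs and of other spliced transcripts, intronic reads derive from unspliced precursors or from small RNAs encoded within introns, repeat reads fall in transposon remnants and other repeated DNA, and intergenic reads lie outside annotated genes. The size of these classes is also used as a measure of how much degraded longer RNA a small RNA library holds.

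All animals were adult male C57BL/6 mice that went through conditioned place preference (CPP), a test in which an animal learns to prefer the chamber paired with a drug. SS mice received saline and saline, CS mice received cocaine and saline, MS mice received l-methionine (MET), a methyl donor, and saline, and MC mice received MET and cocaine. Cocaine was given at 20 mg/kg intraperitoneally, and MET at 1 g/kg subcutaneously 2 times a day for 10 days. The PFC was taken 2 h after the test, gel-cut RNA between 18 and 30 nt long was read over 50 bases, and the RNA of 2 animals was pooled for each of the 3 libraries of a group. SS comprised libraries 12, 13 and 14, CS libraries 8, 9 and 10, MS libraries 3, 4 and 23, and MC libraries 16, 17 and 20.

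In units of 1000000 counts, library totals ranged from 7.77 to 11.1, and the widest 95% Wilson interval of a class share reached 0.0259 percentage points to either side, which covers counting error only. Profiles of 204 miRNA precursor families, which do not include the genomic classes, divided the libraries into 3 sets. Set A held SS 12, CS 8 and CS 9, set C held CS 10, MC 16 and MC 17, and set B held the other libraries, with all of MS among them. Totals in the same unit were 8.23 to 8.71 in set A, 7.77 to 8.18 in set C and 10.0 to 11.1 in set B. The labels name no batch, so the sets are a property of the data, and set and treatment are partly confounded. All 5 brain miRNA markers were detected in every group, with miR-124-3p at 30002 to 176336 counts per 1000000 (CPM), whereas the germ cell markers miR-741-3p and miR-871-3p together stayed at or below 0.486 CPM in every library. The liver marker miR-122-5p ranged from 9.04 to 2494 CPM, with its highest value in an MS library. Over all libraries the summed markers reached 27.0 to 87.4 CPM for muscle, 384 to 3960 CPM for red blood cells, 3.60 to 187 CPM for leukocytes and 19.1 to 338 CPM for epithelium. The highest leukocyte sum was in an MC library, and SS, CS and MS libraries stayed at or below 29.9 CPM.

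The 4 classes together took up 18.7 to 31.4% of a library, with a mean of 23.4 ± 3.50% (SD, n = 12). The sum was 24.0, 18.7 and 21.9% in SS 12, 13 and 14, 24.2, 22.2 and 26.1% in CS 8, 9 and 10, 18.9, 23.5 and 20.1% in MS 3, 4 and 23, and 31.4, 24.1 and 25.5% in MC 16, 17 and 20. MC 16 was the highest library and SS 13 the lowest. The MC group lay above the MS group without overlap, and narrowly above SS, with 24.1% in MC 17 against 24.0% in SS 12. MC overlapped with CS. Among the 1393 rows of all Types that entered the tests, 7.54% were likewise higher in MC than in MS. That share was not computed for MC and SS. miRNAs and their precursors made up 65.9 to 80.3% of the counts, and piRNAs 0.283 to 0.735%. Since all shares add up to the same total, a class can gain in share when miRNAs lose, and the shares of this section are not independent of one another.

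**Figure D1:**
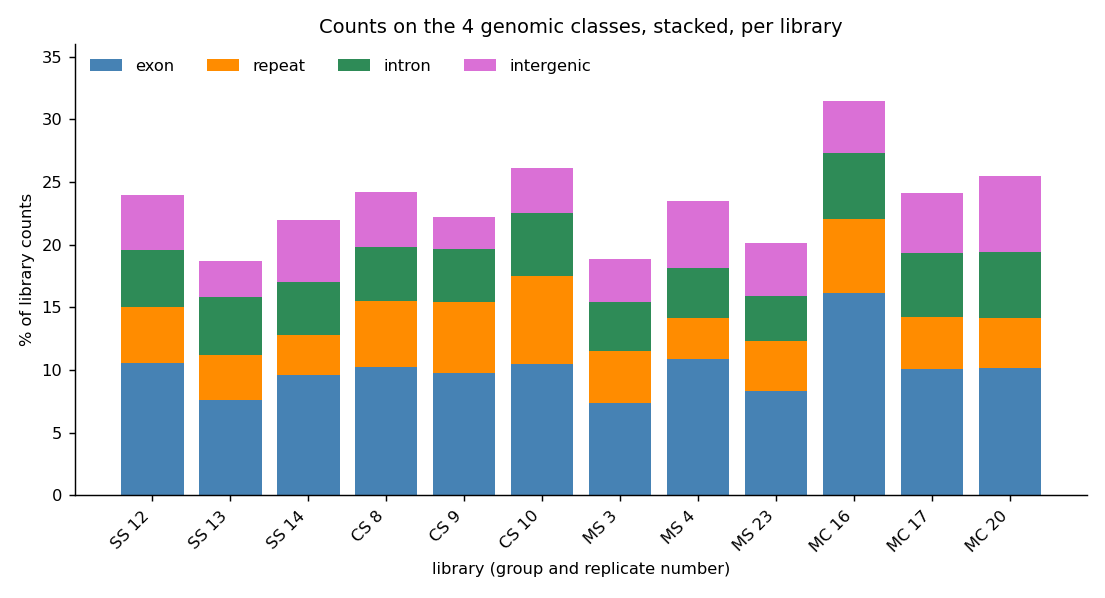
Percentage of library counts (vertical axis) on exon, repeat, intron and intergenic rows, stacked, for each of the 12 libraries (horizontal axis, group and replicate number). The stacks reach from 18.7% in SS 13 to 31.4% in MC 16, and the exon part is the largest of the 4 in every library.

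Exon was the largest of the 4 classes in 12 of 12 libraries. The order of the other 3 classes changed between libraries: repeat was the second class in 5 libraries, intergenic in 4 and intron in 3. In CS, repeat was second in all 3 libraries. In SS, MS and MC the second place was divided among the classes. The ratio of exon to intron counts ranged from 1.63 in SS 13 to 3.06 in MC 16, and the ratio of repeat to intergenic counts from 0.618 in MS 4 to 2.24 in CS 9.

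Levels of classes can be compared only per length. Merged exons and introns were measured on the GENCODE M21 annotation of GRCm38, as bases for repeats and intergenic regions were not computed here. Per megabase of exon, 787 ± 173 CPM were found, and per megabase of intron 41.1 ± 5.06 (SD, n = 12). Per base, exons thus held 19.2 ± 3.25 times the counts of introns, with a lowest ratio of 13.9 and a highest of 26.1, so that the exon density exceeded the intron density in every library. The order in which the authors assigned a read that falls in a repeat and also in an exon or intron is not given in the sources used here. It affects both densities, since repeats within exons and introns were not taken out of the bases.

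The intron class had the largest F statistic among the treatment groups, though its group means spanned the fewest percentage points of the 4 classes. The intron share was 4.54, 4.67 and 4.19% in SS 12, 13 and 14, 4.32, 4.22 and 4.98% in CS 8, 9 and 10, 3.86, 4.00 and 3.63% in MS 3, 4 and 23, and 5.26, 5.07 and 5.26% in MC 16, 17 and 20. All MS libraries lay below all others, all MC libraries lay above all others, and SS and CS overlapped. Group means were 3.83 ± 0.188% in MS, 4.47 ± 0.247% in SS, 4.50 ± 0.414% in CS and 5.19 ± 0.109% in MC (SD, n = 3 each). Among the 4 groups the difference passed the threshold in an exact permutation test of the F statistic over 15400 groupings (F = 13.4, p = 0.00266, adjusted p = 0.0399 over the 15 Types), and intron was the only Type of the 15 that did.

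In the single comparisons, the intron share of MS was lower than that of SS by -0.638 ± 0.179 percentage points (SE), or 0.857-fold, without overlap. Of the 1393 rows tested in this comparison, 4.02% were lower in MS without overlap. MC exceeded CS by 0.690 ± 0.247 points (1.15-fold), also without overlap, as did 3.3% of rows. MC exceeded MS by 1.37 ± 0.125 points (1.36-fold), as did 7.54% of rows, and CS and SS differed by only 0.0382 ± 0.278 points. With 3 libraries against 3, the exact two-sided permutation test cannot give a p below 0.1, which is the value reached in each of the 3 comparisons without overlap. The difference between cocaine and no cocaine was 1.37 points with MET and 0.0382 points without, so the difference of differences was 1.33 ± 0.305 points (SE). Averaged over MET, cocaine libraries were higher by 0.702 ± 0.153 points (exact permutation test, p = 0.045, adjusted p = 0.137), and averaged over cocaine, MET libraries differed by 0.0259 ± 0.153 points (exact permutation p = 0.92).

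**Figure D2:**
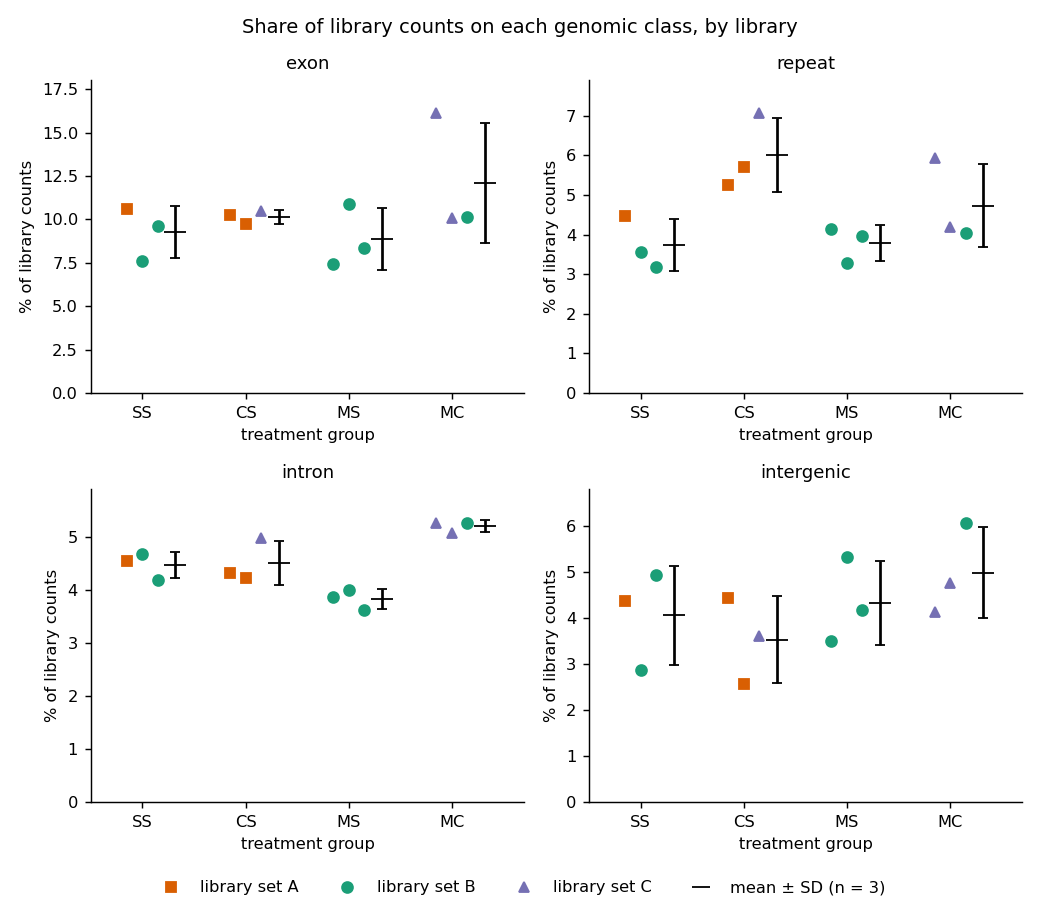
Share of library counts in percent (vertical axes, starting at 0) on each genomic class for the 4 treatment groups. Each point is 1 library, its shape and colour give the library set, and the bars show mean ± SD of 3 libraries. The intron panel has MS lowest and MC highest without overlap with their neighbours, the exon panel has MC 16 at 16.1% above all other libraries, and the groups of the intergenic panel overlap.

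The intron result depended on what the class was divided by. As a share of the counts on the 4 classes alone, intron made up 18.5 ± 1.75% in MS, 18.6 ± 0.701% in CS, 19.5 ± 2.38% in MC and 21.0 ± 3.41% in SS (SD, n = 3 each). On that scale, SS 13 was the highest library with 24.9% and MC 16 the lowest with 16.7%, and MC overlapped with each other group. The test among the 4 groups no longer passed there (adjusted exact permutation p = 0.777), nor on counts outside miRNAs and their precursors (adjusted exact permutation p = 0.864). Thus the separation of MS and MC was seen in the share of the whole library, in which the 4 classes together were also lower in MS than in MC, and not in the make-up of the genomic classes.

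**Figure D3:**
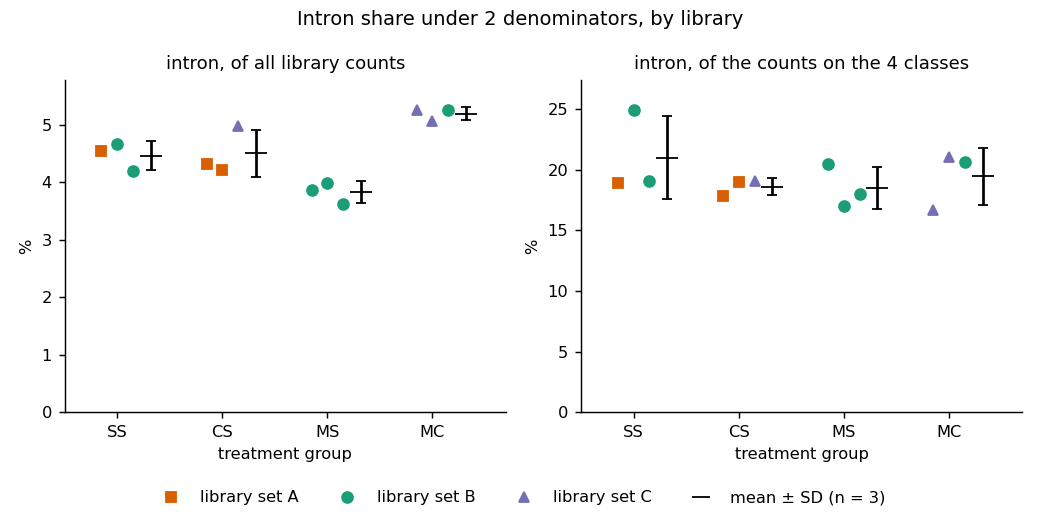
Intron counts in percent (vertical axes, starting at 0) of all library counts on the left and of the counts on the 4 genomic classes on the right, for each library by treatment group. Shapes and colours give the library set, and bars show mean ± SD of 3 libraries. The groups MS and MC separate on the left, where MC lies at 5.07 to 5.26%, and overlap on the right, where MC lies at 16.7 to 21.0%.

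Library set bore on the intron share as well. Set C held the intron shares from 4.98 to 5.26%, set A those from 4.22 to 4.54%, and set B the whole range from 3.63 to 5.26%. Within set B, MC 20 exceeded the mean of the 3 MS libraries by 1.43 points, and the MS libraries lay below the mean of SS 13 and SS 14 by -0.601 points, so both differences were of similar size to those over all libraries. Within set C, however, MC 16 and MC 17 exceeded CS 10 by 0.184 points only, and within set A the CS libraries differed from SS 12 by -0.275 points. With labels exchanged only inside sets, the exact permutation p was 0.0222 (adjusted p = 0.333), a test that was added after the data were seen. The call was also lost when single libraries were left out. It held without SS 14, CS 9 or CS 10 and was lost without each of SS 12, SS 13, CS 8, MS 3, MS 4, MS 23, MC 16, MC 17 and MC 20, with adjusted exact permutation p from 0.00584 to 0.190. Structural RNA (rRNA, tRNA, snRNA and snoRNA) made up 0.300 to 0.519% in MC, 0.210 to 0.346% in CS, 0.142 to 0.288% in SS and 0.152 to 0.220% in MS, so that MC lay above SS and MS, while MS overlapped with SS. Of the 1393 rows tested, 7.54% were higher in MC than in MS without overlap. The share of rows separated between MC and SS, in either direction, was not computed. The summed brain miRNA markers reached 103492 to 143943 CPM in MC and 177164 to 270166 CPM in SS, so that MC lay below SS. The sums were 121821 to 253149 CPM in MS and 137003 to 243407 CPM in CS, and MS overlapped with SS. The single markers did not all follow the sum. Between MC and SS, miR-124-3p was lower in MC without overlap, whereas miR-138-5p was higher in MC without overlap. MC and SS overlapped for miR-9-5p, miR-128-3p and miR-219a-2-3p. The part of structural RNA and of the summed brain markers in the intron difference was not tested. In bulk tissue, moreover, fewer cells of a type and less RNA per cell cannot be told apart.

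The repeat class was highest in CS. Its share was 4.46, 3.56 and 3.19% in SS 12, 13 and 14, 5.26, 5.71 and 7.06% in CS 8, 9 and 10, 4.13, 3.28 and 3.97% in MS 3, 4 and 23, and 5.94, 4.20 and 4.04% in MC 16, 17 and 20. The CS libraries lay above every SS and MS library, and in MC only MC 16 reached into the CS range. Means were 3.74 ± 0.652% in SS, 3.79 ± 0.451% in MS, 4.73 ± 1.05% in MC and 6.01 ± 0.937% in CS (SD, n = 3 each), and all neighbours in this order overlapped. CS exceeded SS by 2.27 ± 0.659 points (SE), or 1.61-fold, without overlap (exact two-sided permutation p = 0.1, the smallest possible), as did 8.97% of the 1393 rows tested.

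Among the 4 groups the repeat share did not pass after adjustment (F = 5.20, exact permutation p = 0.0327, adjusted p = 0.191). Averaged over MET, cocaine libraries were higher by 1.61 ± 0.467 points (exact permutation p = 0.01, adjusted p = 0.112). MC was lower than CS by -1.28 ± 0.814 points (exact permutation p = 0.3) and higher than MS by 0.936 ± 0.662 points (exact permutation p = 0.2), with overlap in both comparisons. The repeat difference of MC and MS was 0.329 points without MC 16, and that of MC and CS was -0.759 points without CS 10. MS and SS differed by 0.0557 ± 0.458 points. As part of the 4 classes alone, repeat made up 24.8 ± 2.77% in CS, 17.4 ± 2.47% in SS, 18.5 ± 4.07% in MS and 17.4 ± 1.52% in MC (SD, n = 3 each), so CS had the highest mean on this scale too. However, CS and MS overlapped there, with 21.8% in MS 3 against 21.7% in CS 8, while CS still lay above SS.

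Repeat was the only one of the 4 classes whose values in set B did not overlap with those in sets A and C. The share was 3.19 to 4.13% in set B, 4.46 to 5.71% in set A and 4.20 to 7.06% in set C. All CS libraries belonged to A or C, whereas 2 of 3 SS and all MS libraries belonged to B. Within set A, CS 8 and CS 9 exceeded SS 12 by 1.03 points, less than the 2.27 points over all libraries. Within set B, MS exceeded SS by 0.417 points and MC 20 exceeded MS by 0.251 points, and within set C the MC libraries were lower than CS 10 by -1.99 points. With labels exchanged inside sets, the exact permutation p was 0.243.

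Predicted piRNAs, which the authors' files place in repeats, numbered 1.98 to 3.69 counts per 100 repeat counts. This ratio was 3.69, 3.40 and 3.28 in SS 12, 13 and 14, 2.68, 2.37 and 1.98 in CS 8, 9 and 10, 2.26, 3.31 and 3.20 in MS 3, 4 and 23, and 3.22, 3.19 and 3.29 in MC 16, 17 and 20. CS lay below SS and MC without overlap, whereas MS 3 fell within the CS range. The ratio is divided by repeat counts, so it is not independent of the repeat share. How many other rows would separate in this way was not computed for this ratio. The share of predicted piRNAs in the library was 0.135 to 0.141% in CS and 0.105 to 0.165% in SS, so CS lay within the SS range here, unlike its repeat share.

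**Figure D4:**
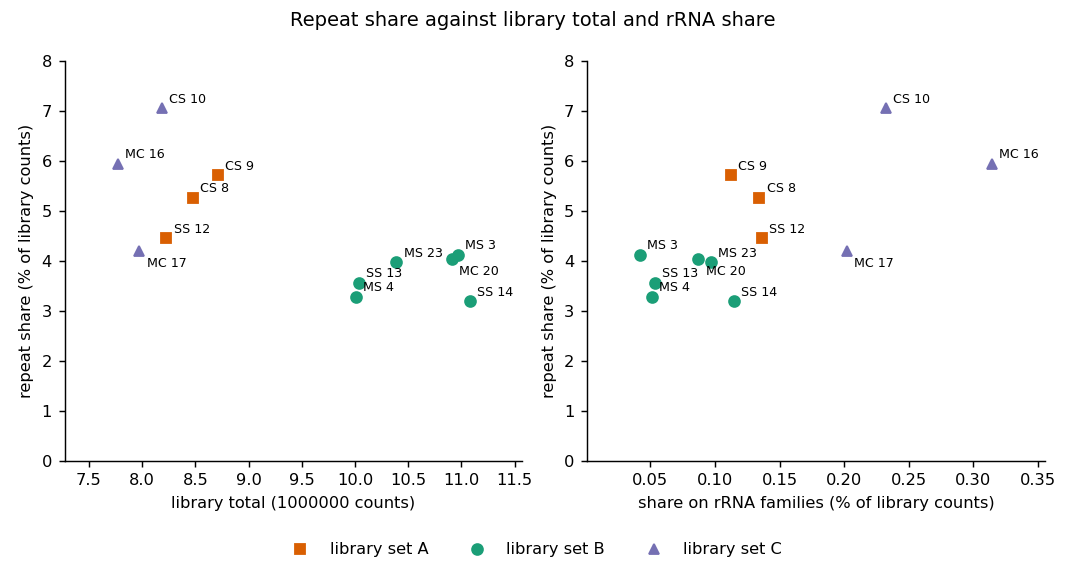
Repeat share in percent of library counts (vertical axes, starting at 0) against the library total in units of 1000000 counts on the left and against the share of rRNA families in percent on the right. Each point is 1 library, and shapes and colours give the library set. Set B lies at totals of 10.0 to 11.1 with repeat shares of 3.19 to 4.13%, and sets A and C lie at smaller totals with repeat shares of 4.20 to 7.06%.

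The exon class, the largest, was set apart by a single library. Its share was 10.6, 7.62 and 9.62% in SS 12, 13 and 14, 10.2, 9.72 and 10.5% in CS 8, 9 and 10, 7.40, 10.9 and 8.34% in MS 3, 4 and 23, and 16.1, 10.1 and 10.1% in MC 16, 17 and 20. MC 16 was far above every other library, which ranged from 7.40 to 10.9%, and all groups overlapped. The mean of MC was 12.1 ± 3.47% with MC 16 and 10.1% without it, against 10.1 ± 0.382% in CS, 9.28 ± 1.51% in SS and 8.88 ± 1.80% in MS (SD, n = 3 each). The 4 groups did not differ beyond their spread (F = 1.40, exact permutation p = 0.359, adjusted p = 0.487). MC exceeded CS by 1.97 ± 2.01 points (SE, exact permutation p = 0.6), a difference that turned to -0.0372 points without MC 16. MC 16 also had the highest rRNA share (0.315%) and the highest structural RNA share (0.519%) of the 12 libraries, and their part in its exon share was not tested.

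The intergenic class varied as much within groups as between them. Its share was 4.37, 2.86 and 4.93% in SS 12, 13 and 14, 4.42, 2.55 and 3.60% in CS 8, 9 and 10, 3.51, 5.31 and 4.17% in MS 3, 4 and 23, and 4.12, 4.76 and 6.06% in MC 16, 17 and 20. Every pair of groups overlapped, with CS 9 lowest and MC 20 highest. Means were 3.53 ± 0.936% in CS, 4.06 ± 1.07% in SS, 4.33 ± 0.914% in MS and 4.98 ± 0.986% in MC (SD, n = 3 each), and no difference among the groups passed (F = 1.15, exact permutation p = 0.390, adjusted p = 0.487). The largest difference of a single comparison, MC over CS, was 1.45 ± 0.785 points (SE, 1.41-fold, exact permutation p = 0.2).

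Over all 12 libraries the coefficient of variation was 12.3% for intron, 21.9% for exon, 23.6% for intergenic and 25.9% for repeat. Without MC 16, that of exon fell to 12.7%, close to the 11.8% of intron in the same 11 libraries.

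The 4 rows were also tested as counts together with all other rows, by edgeR's quasi-likelihood test with TMM factors, which rescale libraries by their typical row. The 4 rows were among the 1393 rows tested, and 0.0% of rows were called at an adjusted p of 0.05 in CS vs SS, MS vs SS, MC vs CS, MC vs MS or the interaction. At an unadjusted p under 0.05 there were 53, 84, 93, 153 and 52 rows in these contrasts (3.8%, 6.03%, 6.68%, 11.0% and 3.73%), and DESeq2 called 3, 25, 2, 32 and 1 rows, none of them a genomic class. Among the rows at an unadjusted p under 0.05 were intergenic in MC vs CS, intron in MC vs MS, and both in the interaction. The biological coefficient of variation of the 4 rows was 0.288 to 0.358, below the median of 0.510 over the rows tested.

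In CS vs SS, repeat had a log2 fold change of 0.52 ± 0.33 (SE, edgeR adjusted p = 0.969), while intergenic had -0.39, intron -0.17 and exon -0.05. The repeat value was 0.28 without CS 10 and 0.15 ± 0.35 with library set as a covariate (edgeR adjusted p = 1.0). In MS vs SS all 4 classes were negative, from -0.42 ± 0.21 for intron (edgeR adjusted p = 0.664) to -0.10 for intergenic. In MC vs MS all 4 were positive, from 0.31 for intergenic to 0.65 ± 0.30 for exon (edgeR adjusted p = 0.440), with intron at 0.56 ± 0.21 (edgeR adjusted p = 0.440). Without MC 16, exon had 0.08, intron 0.32 and repeat -0.01 in MC vs MS, and with library set as a covariate exon had 0.14, intron 0.32 and repeat -0.09. In MC vs CS, intergenic had 0.60 ± 0.22 (edgeR adjusted p = 0.622), exon 0.43, intron 0.31 and repeat -0.21, and without MC 16 exon had -0.10 and intron 0.10. For the interaction, intron had 0.73 ± 0.30 (edgeR adjusted p = 0.922), intergenic 0.70, exon 0.69 and repeat -0.05. TMM factors ranged from 0.768 in MC 16 to 1.25 in CS 8. On library totals without them, 4 of the smaller values changed sign: exon and intron in CS vs SS (0.13 and 0.01) and repeat and intergenic in MS vs SS (0.02 and 0.09). Intron also had -0.22 in MS vs SS and 0.43 in the interaction on that scale. With TMM factors and without MC 16, the interaction of exon was 0.16.

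**Figure D5:**
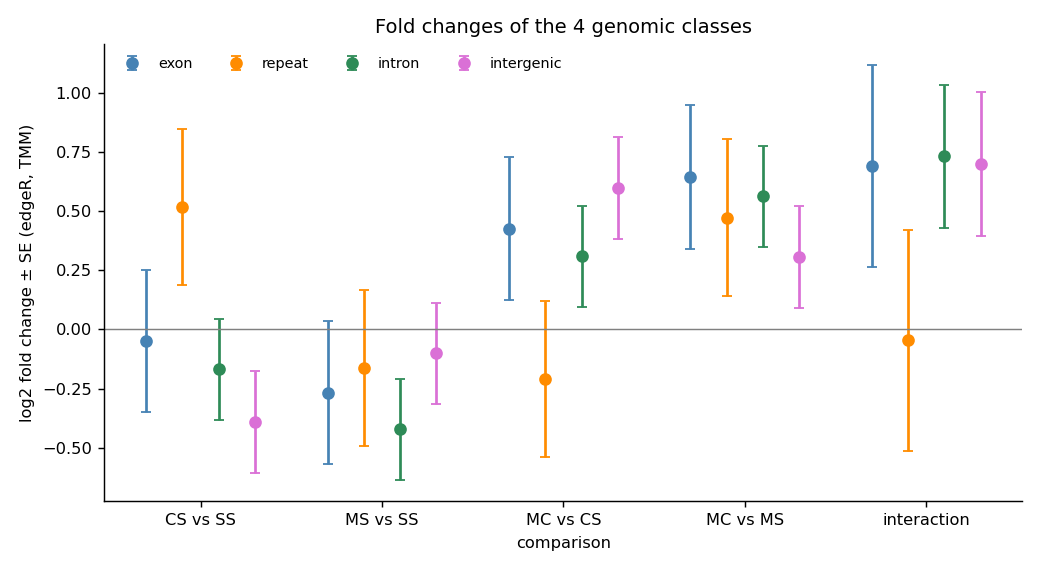
Log2 fold change from edgeR with TMM factors (vertical axis, bars show SE) of the 4 genomic classes in 4 comparisons and in the interaction of cocaine and MET (horizontal axis). All 4 classes lie below 0 in MS vs SS and above 0 in MC vs MS, of which repeat falls below 0 without MC 16 or with library set as a covariate, and no value passed an adjusted p of 0.05.

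Relations between the classes were examined mainly in set B, the only set of 6 libraries, because the library totals of the sets form separate clusters. Of 10 relations in set B, that of exon and intergenic shares had the smallest p (Pearson r = 0.905, exact permutation p = 0.0236, adjusted p = 0.236, Spearman rho = 0.886, exact permutation p = 0.0333), and it did not pass after adjustment. Without the 2 libraries farthest from the median exon share, r was 0.973. Intron share and library total had r = 0.136 (exact permutation p = 0.790, rho = 0.0286, exact permutation p = 1.0), and repeat and intergenic shares r = -0.128 (exact permutation p = 0.806, rho = -0.143, exact permutation p = 0.803). In the 6 libraries of sets A and C together, intron share fell with library total (r = -0.948, exact permutation p = 0.00139, adjusted p = 0.0139). Sets A and C do not overlap in either value, so set and library total cannot be told apart there.

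For each class the 3 rows with the most similar profile were taken from 396 rows of other Types with at least 50 counts in every library, by Pearson's r of log2(CPM + 1) over 12 libraries. These correlations describe libraries that share a total, and no test was made. For repeat, all 3 were rRNA families, the eukaryotic large subunit (r = 0.776) and the families that Rfam names bacterial large subunit (r = 0.805) and bacterial small subunit (r = 0.792). The eukaryotic large subunit row reached 182 to 246 CPM in set A, 212 to 313 CPM in set C and 48.2 to 131 CPM in set B, the same division of sets as for the repeat share. For intron they were U6 (r = 0.742), the spliceosomal RNA that pairs with the 5′ splice site, the family that Rfam names transfer-messenger RNA (r = 0.713), and a predicted piRNA, novel_pir27 (r = 0.726). The organism from which the reads of families so named came was not examined. The files place novel_pir27 in an LTR/ERV1 element, a remnant of an endogenous retrovirus, on the minus strand at chr10:74719672-74719795 of mm10, an interval that other predicted piRNAs share. U6 lay between 48.0 and 113 CPM, and novel_pir27 between 28.5 and 64.0 CPM.

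Exon was most alike the Rfam family named transfer-messenger RNA (r = 0.877), miR-29b-1-5p (r = 0.873) and miR-346-5p (r = 0.844). MC 16 was the highest library for exon and for each of these rows. It held 1978, 72.9 and 314 CPM of them, against 1096, 28.7 and 224 CPM in CS 8, the next highest library. The r values without MC 16 were not computed. Intergenic was most alike miR-1981-3p (r = 0.772), miR-935 (r = 0.746) and the known piRNA mmu_piR_000273 (r = 0.694). miR-29b-1-5p, the passenger strand of a miR-29 hairpin, ranged from 12.1 to 72.9 CPM, and miR-346-5p from 128 to 314 CPM. The mature sequences of the 4 miRNAs are given 5′ to 3′ from RefSeq (GRCm38.p6), where all 4 matched, with seeds (bases 2 to 8) in capitals. The 4 seeds differ, which says nothing about the classes, as the class rows have no sequence of their own.
mmu-miR-29b-1-5p: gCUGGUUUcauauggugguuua
mmu-miR-346-5p: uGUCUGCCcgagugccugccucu
mmu-miR-1981-3p: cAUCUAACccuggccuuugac
mmu-miR-935: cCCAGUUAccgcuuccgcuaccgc
They lie at chr6:31063067-31063088 on the minus strand, chr14:34894624-34894646 on the plus strand, chr1:184822409-184822429 on the minus strand and chr7:3415120-3415143 on the plus strand, in this order.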

How the data were processed

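Small RNA of the PFC was sequenced in 12 libraries, 3 per group. Per the study's methods, the authors removed low-quality reads, adapters and short reads and mapped the rest. The submitters' processing notes name Bowtie and mm10. How reads were assigned to genomic classes is not given in the sources used here. The authors deposited raw read counts per row, and TPM values that equal the count over the library total within 0.005. The header total equalled the sum of counts in 12 of 12 libraries. Only counts were used.

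Shares were compared with exact permutation tests (all groupings), with Benjamini-Hochberg adjustment over 15 Types. Rows reaching 5 counts in 3 or more libraries entered the quasi-likelihood test of edgeR 4.0.16 (R 4.3.3, 1 coefficient per group, 8 residual degrees of freedom). DESeq2 1.42.0, other denominators, scalings and filters, fits on 6 libraries, library set and left-out libraries were alternatives. Python 3.11.15 with scipy 1.17.1 served for the rest. Scripts were tested on simulated data. No 2 libraries agreed within sampling noise (66 pairs). Library sets came from average linkage of precursor profiles, and complete linkage gave the same sets.

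Members, lists and tests were chosen with earlier results of these data known. Named rows are the 4 classes, the 3 most alike rows of each and tissue markers. Nothing but the pooling of 2 animals per library is given on their origin, so p-values measure the spread between these samples. Pooling averages animals.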

Additional observations from a re-analysis of the deposited data

Results flagged for a closer look

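The intron share moved in opposite directions with and without cocaine. MS libraries lay below SS libraries by -0.638 percentage points, and MC libraries above CS libraries by 0.690 points, with every library of MS below every library of SS and every library of MC above every library of CS. Of the 1393 rows tested, 4.02% and 3.3% were likewise separated in these directions. Opposite directions without overlap were the conditions for the flag, so they do not count as support. The share of rows separated in both comparisons at once was not computed. Within set C, MC exceeded CS by 0.184 points only. The test among the 4 groups did not pass on the 4 classes alone or on counts outside miRNAs (adjusted exact permutation p = 0.777 and 0.864). As a description with no test, the difference between the share differences of MC vs CS and MS vs SS was 1.33 ± 0.305 points (SE). In counts, the interaction of the edgeR fit gave intron a log2 value of 0.73 ± 0.30 (SE), with an unadjusted p of 0.0349 and an adjusted p of 0.922.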

How the results depend on the processing

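With 3 libraries per group, of which each holds RNA of 2 animals, single comparisons of shares cannot reach an exact permutation p below 0.1. No paired analysis was possible because the groups share no replicate number. The densities of repeat and intergenic bases, in either order of classes, were not run, because no genome sequence was used here. Of 327 alternative values other than those leaving out a library, 294 kept direction and call. Causes of the changes were not tested.

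The intron difference among groups (adjusted exact permutation p = 0.0399) was lost on counts outside miRNAs (0.864), on the 4 classes alone (0.777) and with labels exchanged inside sets (0.333, added after seeing the data), and lay at 0.00584 to 0.190 with a library left out. On counts outside miRNAs and on the 4 classes, respectively, these differences in percentage points changed sign: exon CS vs SS (-0.626, -0.898), intron CS vs SS (-2.15, -2.37), repeat MC vs MS (-1.32, -1.13), intergenic MC vs MS (-1.88, -1.75), intron for MET (-0.931, -0.832), intron for cocaine (-0.736, -0.706) and intergenic for cocaine (-2.89, -2.96). On the log2 scale intron for MET was -0.0064. Within set A, CS vs SS was -0.619 for exon and -0.275 for intron, and within set B, MS vs SS was 0.256 for exon.

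In edgeR without TMM factors, the log2 fold change of CS vs SS was 0.13 for exon and 0.012 for intron, and that of MS vs SS 0.021 for repeat and 0.093 for intergenic. Repeat was -0.087 in MC vs MS with library set as covariate, and 0.10 in the interaction with TMM factors of mature miRNAs. Against 0 rows by edgeR, DESeq2 called 3, 25, 2, 32 and 1 rows in CS vs SS, MS vs SS, MC vs CS, MC vs MS and the interaction, and library set as covariate called 1 in CS vs SS.

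With 1 library left out, share differences of changing sign ranged from -0.199 to 0.181 (intron CS vs SS), -1.41 to 0.336 (exon MS vs SS), -0.217 to 0.417 (repeat MS vs SS), -0.325 to 0.708 (intergenic MS vs SS), -0.0372 to 2.99 (exon MC vs CS), -0.220 to 1.29 (exon, MET), -0.0456 to 0.145 (intron, MET) and -0.236 to 0.308 (intergenic, cocaine). edgeR log2 fold changes ranged from -0.17 to 0.045 (exon CS vs SS), -0.29 to 0.0025 (repeat MS vs SS), -0.28 to 0.023 (intergenic MS vs SS), -0.099 to 0.64 (exon MC vs CS), -0.66 to 0.043 (repeat MC vs CS), -0.0090 to 0.67 (repeat MC vs MS) and -0.50 to 0.21 (repeat, interaction). Rows called were 0 to 5 in MS vs SS and 0 to 1 in MC vs MS, with 5 and 1 without MC 16.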
